A study of Schizosaccharomyces pombe with 2 samples.

Results

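The 251 annotated introns of 150 to 200 nt described here were taken by length alone from a table of 1292 annotated introns of the fission yeast *Schizosaccharomyces pombe*, after repeated lines were dropped. They belong to 243 host genes. The table came from lariat sequencing, in which total RNA was separated on 2-dimensional acrylamide gels and the arc that holds circular RNA was cut out and sequenced. The cells were strain 972 h- with the genotype delta-dbr1, and RNA of 41 growth or treatment conditions went into a single pool before the gels, so no condition can be compared with another. The table carries the name of the short gel run, whose second gel held 15% acrylamide. There was 1 library for that run, so no value has a replicate, and no interval covers variation between cultures or libraries. Poisson intervals on single counts cover counting error only, and treat PCR copies as if they were separate molecules. Wilson intervals on shares of introns treat the introns as independent draws.

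When an intron is spliced out, its first base is joined to an adenosine near its 3′ end, the branch point, and the intron leaves as a lariat, a loop with a short tail. Dbr1 is the enzyme that cuts this bond so that the intron can be degraded, and cells without it keep their lariats. The tail can be trimmed off, which leaves a circle that runs on a gel apart from linear RNA. The branch sequence of fission yeast introns is variable around a core that ends in an adenosine and a pyrimidine. The tables give peak reads, which are the reads over an intron, and branch reads, which cross the bond and place the branch point.

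The introns with the most branch reads show the 3′ ends that the branch results rest on. Each line gives the last 30 nt of an intron, 5′ to 3′ in the sense of the gene, read from the ASM294v3 assembly, with the leading 7-nt branch sequence in capitals and the branch adenosine as its sixth base.
rpp103 intron 1, chr3:2408070-2408099, minus strand: ttctttcaaattAGCTAACaaaacttctag
btf3 intron 1, chr1:4861029-4861058, minus strand: gaactgcttAATTAACttatcattgtatag
ero11 intron 1, chr2:2720591-2720620, minus strand: attttgttccttaattTACTAACatcttag
ypt1 intron 4, chr2:2933680-2933709, plus strand: gcggttccgaGGCTAATgcttgcttcttag
SPBC1703.05 intron 1, chr2:2924203-2924232, plus strand: tcaataagtattcgAACTAACaagttatag
SPCC320.11c intron 2, chr3:144808-144837, plus strand: tttagttcaatcaAGTTAACatacttatag
idh2 intron 3, chr2:493084-493113, minus strand: cacgaaaatcacgttTACTAATtcgtttag
rpl35a intron 1, chr3:540377-540406, minus strand: tcgttctatttTGCTAACttatcgttttag
SPBC29A10.16c intron 1, chr2:2575097-2575126, minus strand: ttaaacatgtcCACTAACtatttgttttag
adf1 intron 2, chr1:4825755-4825784, minus strand: ggaacctttCACTAATttttttttgtttag

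3 whole introns show the class at its highest count and towards both ends of its length range. Capitals mark the first 6 nt, the leading branch sequence and the last 3 nt. The intron of rpp103 had the most peak reads and 229 branch reads. The intron of cdc42 begins with GTGAGT and leads with TACTGAC, both of them uncommon in the class, and the intron of rpl42 is the highest near 200 nt.
rpp103 intron 1, chr3:2408070-2408224, minus strand: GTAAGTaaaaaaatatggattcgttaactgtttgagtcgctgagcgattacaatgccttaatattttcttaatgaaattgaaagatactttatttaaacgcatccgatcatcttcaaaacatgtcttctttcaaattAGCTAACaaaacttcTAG
cdc42 intron 1, chr1:1916156-1916318, plus strand: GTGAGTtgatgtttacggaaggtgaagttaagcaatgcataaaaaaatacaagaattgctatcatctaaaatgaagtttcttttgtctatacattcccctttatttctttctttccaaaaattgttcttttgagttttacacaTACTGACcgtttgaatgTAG
rpl42 intron 1, chr1:3722809-3722998, plus strand: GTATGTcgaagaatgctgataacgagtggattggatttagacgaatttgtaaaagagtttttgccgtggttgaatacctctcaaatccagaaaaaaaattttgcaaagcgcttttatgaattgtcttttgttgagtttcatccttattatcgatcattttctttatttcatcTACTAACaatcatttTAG

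The class made up 19.4% of the listed introns and held 2659810 of 9296300 peak reads, which is 28.6%. The introns of 100 to under 150 nt made up 35.9% of the listed introns and held 60.2% of the reads. Its median intron had 2498 peak reads (quartiles 548.5 and 7026), against 1304.5 for the 464 introns of 100 to under 150 nt and 45 for the 73 introns of over 200 to 250 nt. Counts within the class ran from 7 to 314531, with 18 introns under 100 reads and 46 over 10000 reads. Read at their listed positions in ASM294v3, all 251 introns ran from GT to AG, and 241 of them equalled an annotated intron of that assembly at both ends.

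A few introns carried most of the reads. The 10 highest held 50.6% of the reads of the class, the 50 highest held 82.5%, and the introns below the median held 3.73%. Intron 1 of rpp103, a gene of the acidic ribosomal stalk protein P1, led with 314531 reads in 155 nt (95% Poisson interval 313433 to 315632). Intron 1 of ero11, which encodes an enzyme that makes disulfide bonds in secreted proteins, had 305702 reads in 167 nt. These 2 introns together held 23.3% of the reads of the class.

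The rest of the 10 highest mixed small RNA hosts with protein genes. Introns 5, 2 and 1 of the non-coding transcript SPNCRNA.659 had 175833, 137088 and 83031 reads. Intron 2 of grx1, a glutaredoxin gene, had 82305 reads, and intron 1 of cdc42, a GTPase gene of cell polarity, had 75920. Intron 3 of php3, a subunit of the CCAAT-binding factor, had 68825. Intron 1 of fta3, a kinetochore gene, had 53961, and intron 2 of rpl3801, a gene of ribosomal protein eL38, had 48891. So 5 of the 10 were first introns, and 9 were shorter than 180 nt.

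5 introns held an annotated small nucleolar RNA (snoRNA), a guide for chemical modification of ribosomal RNA, and all 5 were among the 10 highest. They were the intron of ero11 with snoU18, the 3 introns of SPNCRNA.659 with snoZ3, snoZ7 and snoZ8, and the intron of fta3 with snoR47. Their median was 137088 reads, against 2378.5 for the other 246 introns, and they held 28.4% of the reads of the class. The snoRNA took up between 48.2% and 54.6% of each intron, from 78 to 100 nt. Whether reads of the mature snoRNA contributed to these counts was not tested. The introns of ero11 and fta3 lie in the 3′ untranslated part of their genes, and that of ero11 had 208 branch reads while that of fta3 had 4. The branch table holds no intron of any SPNCRNA transcript, so the absence of branch reads for SPNCRNA.659 says nothing about its introns.

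SPNCRNA.659 gave a comparison across the upper length limit inside 1 transcript, made after its values were seen. Its introns of 162, 177 and 183 nt summed to 395952 reads. Its intron 4, with snoZ4, measured 206 nt and had 422 reads. The lowest of the 3 shorter introns thus had 83031 reads, and the only longer one had 422.

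At the other end, the 10 lowest introns had 7 to 54 reads. Intron 4 of SPCC1450.12, an uncharacterized gene, had 7 reads in 187 nt, while intron 2 of the same gene, of 123 nt, had 10145. Intron 1 of SPAC15E1.05c, a gene of phospholipid synthesis, had 10 reads in 155 nt and lies in the 5′ untranslated part. Intron 2 of spo20, a gene of a Sec14 family lipid transfer protein, had 11 reads in 196 nt. The lowest counts were thus found at both ends of the length range.

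The other 7 of the lowest 10 had 27 to 54 reads. They were intron 1 of SPBC1539.07c, a formaldehyde dehydrogenase gene, with 27 reads, intron 1 of SPCC553.05c with 30, and intron 1 of rpn1302, a proteasome gene, with 36. Intron 2 of wtf17, of a family of meiotic drive genes, had 42 reads, and intron 1 of SPCC576.17c, a vitamin B6 transporter gene, had 43. Intron 1 of fta7, a kinetochore gene, had 49, and intron 1 of atg4, a protease of autophagy, had 54. Of the 10 lowest, 6 lay on chromosome 3, which held 56 of the 251 introns, and 2 had branch reads. Of the 10 highest, 7 had branch reads, and the other 3 were the introns of SPNCRNA.659, which the branch table leaves out.

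A family of introns with shared stretches was found at the low end. 9 introns of 166 to 169 nt belonged to wtf genes, SPCC553.05c among them, which the reference annotation names wtf6. Their counts were 30 to 396 reads with a median of 98, none had a branch read, and 5 of them were among the 18 introns under 100 reads. All 9 began with GTAAGA, ended with CAG and lay on chromosome 3. Of their 30-nt windows, 31.9% to 89.1% also occurred elsewhere in the genome, and only 1 other intron of the class, intron 3 of cdc16, shared any such window. The sources used here do not say how reads that match several wtf copies were counted, so the counts of these introns are uncertain. The pair below shows where the repeats lie, with capitals marking bases inside a 30-nt stretch that occurs more than once in the assembly. A single repeated window marks 30 bases, so capitals can cover more of an intron than its share of repeated windows. That share was 89.1% in wtf21 and 42.1% in wtf22. The intron of wtf21 had 70 reads and that of wtf22 had 396. The intron of wtf24 had the lowest share, 31.9%, and 87 reads. That of wtf10 had a higher share than those of wtf22 and wtf24, and 302 reads. A relation between share and count was not tested, and none is read from the pair.
wtf21 intron 1, chr3:2064591-2064757, plus strand: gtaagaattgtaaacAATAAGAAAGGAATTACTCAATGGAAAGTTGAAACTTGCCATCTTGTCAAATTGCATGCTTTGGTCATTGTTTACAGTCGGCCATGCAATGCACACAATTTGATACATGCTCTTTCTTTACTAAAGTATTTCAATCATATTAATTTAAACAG
wtf22 intron 1, chr3:2110222-2110390, minus strand: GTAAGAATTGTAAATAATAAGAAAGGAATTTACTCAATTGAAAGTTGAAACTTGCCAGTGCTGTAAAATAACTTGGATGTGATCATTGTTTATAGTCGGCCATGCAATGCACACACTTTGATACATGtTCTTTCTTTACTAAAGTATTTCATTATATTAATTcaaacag

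Several subgroups looked different once the wtf introns were left out, a comparison made after their values were seen. The median of the introns on chromosome 3 was 1210.5 reads with them and 2161 without, beside 2481.5 on chromosome 1 and 3032 on chromosome 2. The 20 introns that begin with GTAAGA had a median of 361 reads, and the 11 of them outside wtf genes had 1557. The median of the class moved less, from 2498 to 2675 reads.

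The second question was how reads changed towards 200 nt. The 163 members under 180 nt had a median of 3158 reads and held 81.5% of the reads of the class. The 88 members of 180 nt or more had a median of 1017.5 and held 18.5%. The longer introns thus had a median 3.10-fold lower, a difference of -0.49 on the log10 scale. The counts overlapped almost fully, from 7 to 137088 in the longer introns and from 10 to 314531 in the shorter ones.

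In steps of about 10 nt, the fall came late. The medians were 3068.5 reads in 66 introns of 150 to 159 nt, 2601 in 55 introns of 160 to 169 nt and 4585.5 in 42 introns of 170 to 179 nt. Without the 9 wtf introns, the median at 160 to 169 nt was 3819. The median was 1720 in the 53 introns of 180 to 189 nt and 407 in the 35 of 190 to 200 nt. The fall went on past the class, with medians of 87 reads in 29 introns of 201 to 210 nt and 38 in 13 introns of 211 to 220 nt. Across the class, length and peak reads gave a Spearman rank correlation of -0.213 and Pearson's r on log10 reads of -0.234, over 251 introns that share 1 library.

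**Figure D1:**
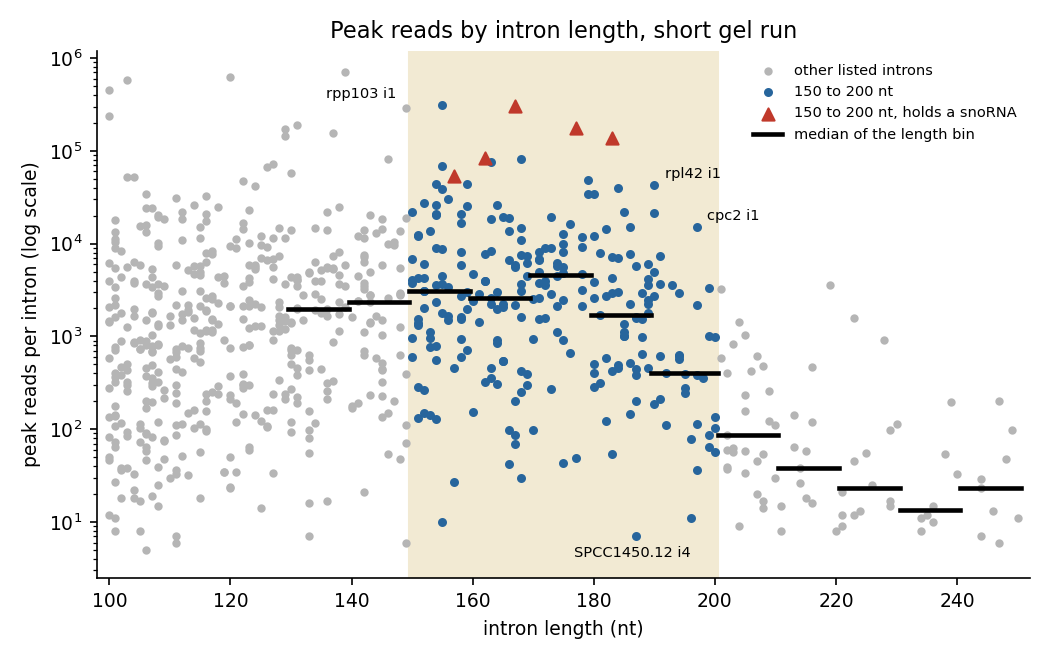
Peak reads (log scale) of each listed intron of 100 to 250 nt against its length in nt; blue points and red triangles are introns of 150 to 200 nt (shaded), triangles hold a snoRNA, grey points are other listed introns, and black bars are medians of length bins from 130 nt on. The bar stands at 4585.5 for 170 to 179 nt, 407 for 190 to 200 nt and 87 for 201 to 210 nt, while single introns such as rpl42 intron 1 stay high.

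High counts near 200 nt came from few introns. Of the 35 introns of 190 to 200 nt, 3 had over 10000 reads. They were intron 1 of rpl42 with 43141 reads in 190 nt, intron 1 of rpl35a with 21256 in 190 nt, and intron 1 of cpc2, a gene of the ribosome-bound protein RACK1, with 15244 in 197 nt. The other end of the same bin was held by spo20 with 11 reads. At the limits of the rule, the 6 introns of exactly 150 nt had a median of 3917 reads (604 to 22108) and the 6 introns of 149 nt had 254.5 (6 to 289891). The 4 introns of 200 nt had a median of 119.5 reads (57 to 993), and the 2 introns of 201 nt had 588 and 3258.

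The highest intron of each length bin came from a ribosomal protein gene or held a snoRNA. These were the introns of rpp103, ero11 and SPNCRNA.659 (introns 5 and 2) in the first 4 bins and rpl42 in the last. The lowest introns of the bins came from genes of unlike roles, namely SPAC15E1.05c with 10 reads, SPCC553.05c with 30, SPCC576.17c with 43, SPCC1450.12 with 7 and spo20 with 11.

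The share of introns that were listed at all changed differently from their reads. The reference annotation holds 263 mRNA introns of this length, of which 240, or 91.3%, appeared in the table (87.2 to 94.1, Wilson 95% interval). Per bin the share was 90.1%, 86.9%, 93.2%, 94.1% and 94.4% from the shortest to the longest. It was 84.8% at 201 to 210 nt and 42.9% at 211 to 220 nt. Inside the class the share was thus 86.9% or more in every bin, while the median count was 4585.5 at 170 to 179 nt and 407 at 190 to 200 nt.

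**Figure D2:**
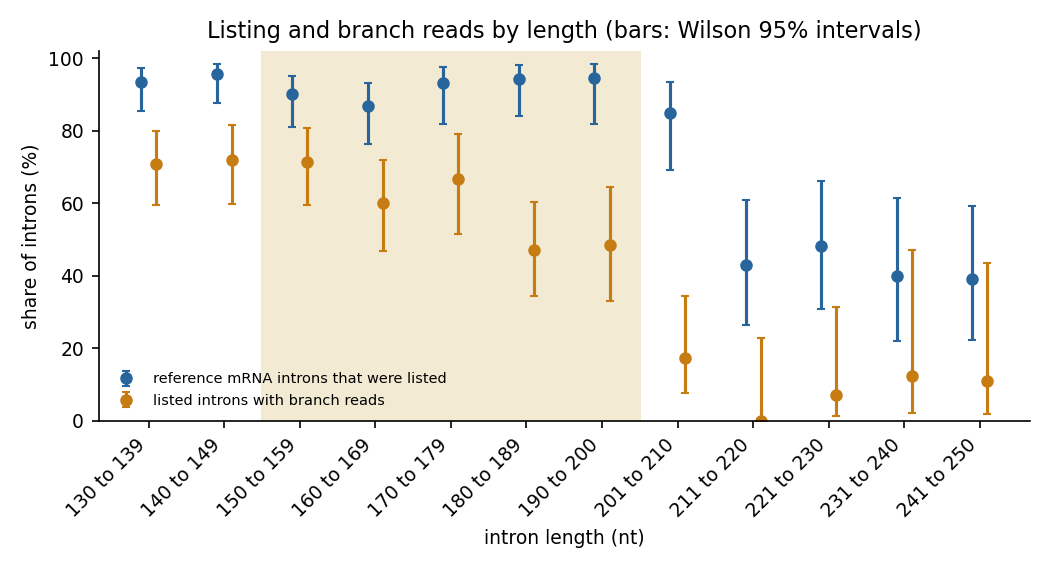
Share in % of reference mRNA introns that were listed (blue) and of listed introns with at least 1 branch read (orange), by length in nt, with the bins of 150 to 200 nt shaded and bars for Wilson 95% intervals. Listing stays at 86.9% or more inside the class and is 42.9% at 211 to 220 nt, and the share with branch reads is 71.2% at 150 to 159 nt and 48.6% at 190 to 200 nt.

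23 reference introns of the length were not listed. 17 of them were first introns, and 5 belonged to wtf genes, out of 14 wtf introns of this length in the reference. The 5 wtf introns were themselves first introns, so these counts overlap. The share of first introns among all reference introns of the length was not computed. Whether first introns were missed more often than others is therefore not read from the 17. Intron 4 of spt20, a gene of the SAGA coactivator complex, appeared in the table of added introns instead, with 59282 reads. The first intron of ypt1, a Rab GTPase gene, measures 168 nt and was not listed, while intron 4 of the same gene had 43414 reads. The branch table listed reads for 3 of the 23: intron 2 of brf1 with 34, intron 1 of ppk9 with 2 and intron 1 of wtf11 with 1. These genes are named because they were missing from the table.

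The number of the intron in its gene was examined next. The class held 139 first introns, 71 second introns, 30 introns numbered 3 and 11 with higher numbers, so that 55.4% were first introns (49.2 to 61.4), beside 52.4% at 100 to under 150 nt and 53.1% of all listed introns. First introns had a median of 2227 reads and second introns 2100, and the 30 introns numbered 3 had 3837.5 and the 11 later ones 3831. The difference between first and all later introns was -0.13 on the log10 scale, and it turned to 0.042 when introns of 140 to 210 nt were taken, so no direction is given.

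**Figure D3:**
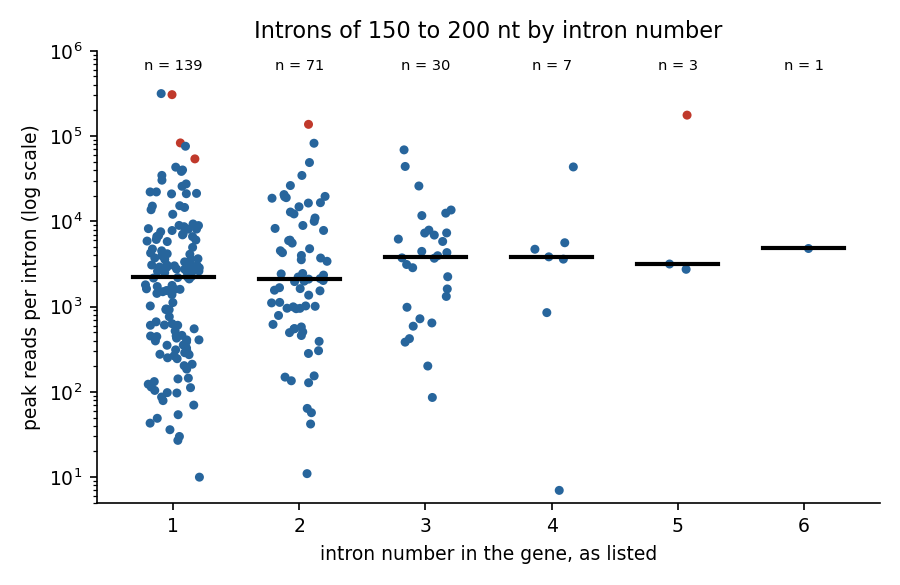
Peak reads (log scale) of the introns of 150 to 200 nt by intron number as listed; each point is an intron, red points hold a snoRNA, bars are medians, and n is the number of introns. The ranges overlap across almost their whole height, with medians of 2227, 2100 and 3837.5 reads for introns 1, 2 and 3.

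Introns were also grouped by their place in the gene. The 70 introns that were the only one of their gene had a median of 2613 reads, the 61 first of several had 1617, the 46 in the middle had 2590 and the 63 last of several had 3158. By part of the gene, 235 introns lay in the coding part with a median of 2443 reads. The 7 in the 5′ untranslated part had a median of 407 reads (10 to 7535), and the 3 in the 3′ untranslated part had 53961 (7309 to 305702), of which 2 hold a snoRNA.

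Within a gene, an intron of this length was more often than not the one with most reads. There were 61 class introns whose gene had other listed introns, all of them outside 150 to 200 nt, and in 43 of the 61 the class intron was the highest, which is 70.5% (58.1 to 80.4). An even draw among the listed introns of each gene would give 46.7%. These 61 introns formed 73 pairs with the other listed introns of their genes. The class intron was higher in 5 of 5 pairs with an intron under 80 nt, in 24 of 28 pairs with one of 80 to under 100 nt, in 19 of 34 pairs with one of 100 to under 150 nt and in 6 of 6 pairs with one over 200 nt.

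Single genes showed how wide these gaps were, and the following were chosen after their values were seen. Intron 1 of cpc2 had 15244 reads in 197 nt, and its intron 2 had 43 reads in 253 nt. Intron 3 of php3 had 68825 reads in 155 nt, and its intron 1 had 200 reads in 147 nt. Against the trend, intron 1 of ufe1, a SNARE gene, had 114 reads in 197 nt, and its intron 2 had 5896 reads in 88 nt. Intron 1 of fta7 had 49 reads in 177 nt, and its intron 3 had 2137 reads in 123 nt. Introns of 1 gene thus stood far apart in both directions.

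7 genes had several introns in the class, 15 introns in all. In kes1, an oxysterol-binding protein gene, introns 3 and 5 had 3948 and 2737 reads. In spd2, of a family of ribonucleotide reductase inhibitors, introns 1 and 2 had 1017 and 1008 reads. In mms2, a ubiquitin-conjugating enzyme gene, introns 2 and 3 had 18654 and 11676 reads. These 3 genes had introns within 2-fold of each other.

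In other genes the members of the class stood further apart. In mbx1, a MADS-box transcription factor gene, introns 1 and 3 are both 151 nt long and had 1549 and 12465 reads. In SPCC320.11c, a ribosome biogenesis gene, introns 1 and 2 had 761 and 7813 reads. In SPBC660.16, a phosphogluconate dehydrogenase gene, introns 2 and 4 had 19443 and 3602 reads. The higher intron was the later one in mbx1 and SPCC320.11c and the earlier one in SPBC660.16.

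Host genes were grouped into 9 lists by patterns in their listed or reference names, so each list is a group of names and leaves out genes of the same role that are named otherwise. Among those left out were the introns of mms2, uch2 and SPAP32A8.03c in the ubiquitin list, and intron 3 of sce3, a translation initiation factor gene, with 25947 reads. The same held for php3 and mbx1 in the transcription list, for intron 1 of acp2, an actin-capping gene, with 2188 reads in the cytoskeleton list, and for cpc2 in the ribosomal list. The counts and medians below therefore hold for the matched names alone. The 9 introns on the ribosomal protein list had a median of 27451 reads, held 19.0% of the reads of the class, and 8 of them lay above its median of 2498. After rpp103 and rpl3801, the range went down to intron 1 of rpl3601 with 1428 reads. The 7 under 180 nt had a median of 27451 reads, and the other 2 had a median of 32198.5. Without the genes on this list, the median was 3068.5 reads in the 156 introns under 180 nt and 1012.5 in the 86 longer ones.

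The small GTPase and vesicle transport list matched 11 introns with a median of 3397 reads, and 8 lay above the median of the class. After cdc42 they were led by intron 4 of ypt1 with 43414 reads, and the lowest was intron 4 of vti1, a SNARE gene, with 850. The cytoskeleton list matched 6 introns with a median of 7253 reads, and 4 lay above the median of the class. They ran from cdc42, which is on both lists, and intron 2 of adf1, the cofilin gene, with 8253, down to intron 2 of alp31, a tubulin chaperone gene, with 149. All 6 had branch reads.

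The ubiquitin and proteasome list matched 9 introns with a median of 1115 reads, and 2 lay above the median of the class. These were intron 3 of ubc11, a ubiquitin-conjugating enzyme gene, with 7284 and intron 3 of SPAC6G10.04c, a proteasome core subunit gene, with 5805, while rpn1302 had 36. The meiosis and mating list matched 6 introns with a median of 932.5 reads, and 2 lay above the median of the class. They were intron 1 of mug64 with 38475 and intron 1 of ste4, an adaptor of the pheromone pathway, with 2743, and the lowest was spo20.

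The respiration and mitochondria list matched 7 introns with a median of 2222 reads, from intron 3 of idh2, an isocitrate dehydrogenase gene, with 43982, and intron 1 of atp1, an ATP synthase gene, with 6125, to intron 2 of cox20 with 1120. The 7 introns taken by name as splicing genes had a median of 4905 reads, led by intron 1 of snu13 with 22108. 4 of these 7 genes have other roles: SPBC3B9.03 with 9309 reads is a signal recognition particle receptor gene, spp27 acts in RNA polymerase I transcription, SPCC126.13c in a histone deacetylase complex and spp2, with the lowest count of 64, in DNA replication. The transcription list matched 6 introns with a median of 2277 reads, led by intron 3 of spt20 with 7309 and intron 1 of tfg3 with 6036. The translation list matched 2 introns, those of the initiation factor genes SPAC821.05 and SPAC1751.03, with 34500 and 1531 reads. The 189 introns on no list had a median of 2340 reads.

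Branch reads were listed for 150 of the 251 introns, which is 59.8% (53.6 to 65.6), against 72.2% at 100 to under 150 nt. The 150 introns had 2599 branch reads, with a median of 4, and 35 of them had a single read. The share with branch reads was 71.2%, 60.0%, 66.7%, 47.2% and 48.6% in the bins from 150 to 159 nt up to 190 to 200 nt. Introns of SPNCRNA transcripts, which the branch table leaves out, are counted here as introns without branch reads. They include SPNCRNA.659 intron 2 and intron 1 of SPNCRNA.1508, SPNCRNA.1038 and SPNCRNA.893, at 183 to 186 nt, which lower the share of that bin. By peak reads, the share was 23.8% in the 63 introns with fewest peak reads, 54.0% in the next 63, 75.8% in the next 62 and 85.7% in the 63 highest. Introns with branch reads had a median of 4056.5 peak reads and those without had 589. Branch and peak reads come from 1 library, and the part of depth in this relation was not tested. Some introns with many peak reads had none that crossed the branch, such as intron 2 of SPCC1322.09 with 20582 peak reads and intron 1 of hhp2 with 13673, both named after their values were seen.

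The number of branch reads followed the number of peak reads loosely. Over the 150 introns with branch reads, which share 1 library, Spearman's rank correlation was 0.482, with Pearson's r on log10 values at 0.527. The median was 1.09 branch reads per 1000 peak reads (quartiles 0.508 and 3.67), against 3.07 at 100 to under 150 nt. The median of the class depended on the introns counted: it was 1.90 in those with at least 5 branch reads, and 0.278 with all 251 introns when those without branch reads were counted as 0. The gap between the 2 length classes was smaller when reads were pooled over the introns with branch reads. The pooled ratio was 1.25 per 1000 peak reads in the class and 1.76 at 100 to under 150 nt.

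**Figure D4:**
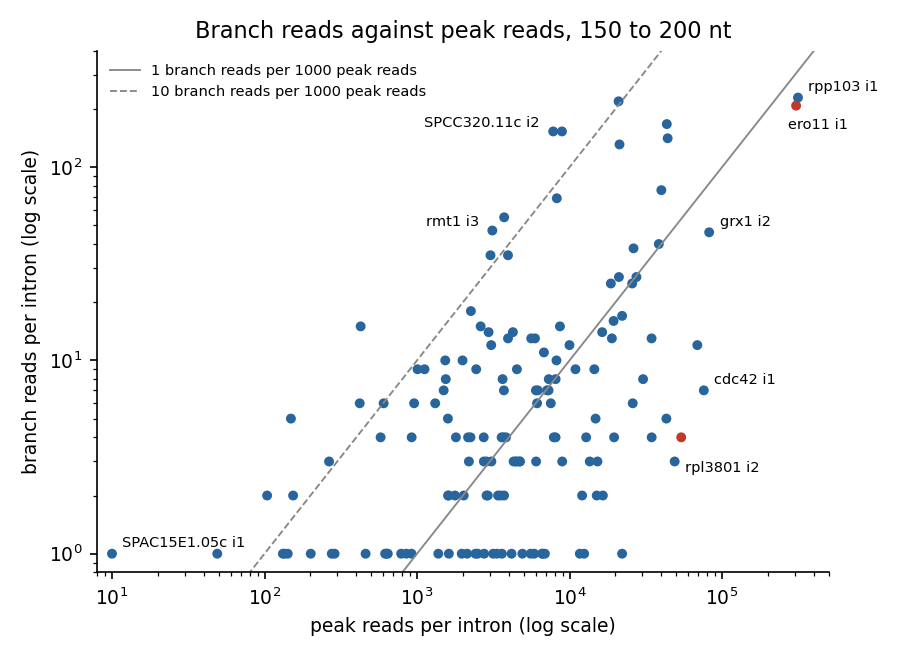
Branch reads against peak reads for the 150 introns of 150 to 200 nt with branch reads, both on log scales; each point is an intron, red points hold a snoRNA, and the grey lines mark 1 (solid) and 10 (dashed) branch reads per 1000 peak reads. SPCC320.11c intron 2 has 153 branch reads with 7813 peak reads, while cdc42 intron 1 has 7 with 75920.

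The introns with most branch reads were not simply those with most peak reads. rpp103 led with 229 branch reads. It was followed by btf3, a gene of the nascent polypeptide-associated complex, with 219 branch reads beside 20968 peak reads. The introns of ero11, ypt1, SPBC1703.05, SPCC320.11c, idh2, rpl35a, SPBC29A10.16c and adf1 had 208, 167, 153, 153, 141, 131, 76 and 69. SPBC1703.05 encodes a RIO family kinase, and SPBC29A10.16c a cytochrome b5.

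In the 21 introns whose branch reads reached 20, the number of branch reads per 1000 peak reads spanned 0.559 to 19.6. The 5 lowest were intron 2 of grx1 with 0.559, ero11 with 0.680, rpp103 with 0.728, intron 1 of the ubiquitin ligase gene SPAP32A8.03c with 0.972 and intron 1 of rps1801 with 0.984. The 5 highest were intron 2 of SPCC320.11c with 19.6, SPBC1703.05 with 17.2, intron 3 of the arginine methyltransferase gene rmt1 with 15.1, intron 3 of SPCC1393.09c with 14.8 and intron 1 of dis3, an exosome ribonuclease gene, with 11.5. The minimum of 20 branch reads leaves out introns such as cdc42, with 7 branch reads, and rpl3801, with 3, whose ratios were lower still. It also leaves out higher ratios, such as 35.1 in intron 1 of mus81, with 15 branch reads and 427 peak reads. The peak reads of the 5 lowest were 25733 or more, and those of the 5 highest were 8916 or fewer. Peak reads are the denominator of this ratio, and the minimum of 20 branch reads admits introns with few peak reads only at higher ratios. No relation between the ratio and peak reads is therefore read from these introns.

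The leading branch position of each intron held 2542 of the 2599 branch reads, which is 97.8%. In 124 introns it was the only position, although 35 of these had 1 read and could show no other. The other 26 introns had 30 further positions, and 13 of these lay exactly 1 nt upstream of the leading position, with 25 reads in all. A true second branch point and an error of alignment at the junction cannot be told apart from these counts. The adenosine at the sixth base was present at all 180 positions, so a search limited to adenosine is possible and its part was not tested.

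No intron with at least 20 branch reads split its reads evenly. The lowest leading share was 32 of 35 reads in dis3, which is 91.4%, followed by 51 of 55 in SPCC1393.09c, 125 of 131 in rpl35a, 210 of 219 in btf3 and 26 of 27 in intron 1 of SPAC1F12.10c. In btf3 the other 9 reads lay at a second sequence that overlaps the first, 4 nt closer to the intron end. The line for btf3 above carries the leading AATTAAC with 210 reads, and the line here marks the second sequence.
btf3 intron 1, second position: gaactgcttaattAACTTATcattgtatag
Introns with fewer reads could be less uneven, such as cdc42 with 4 reads at TACTGAC and 3 at TACACAT. In intron 2 of nup37, a nucleoporin gene, AACTAAT and GATTAAC had 4 reads each. The one listed first, AACTAAT, was taken as leading.

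The leading sequences varied around one core. TACTAAC led in 21 of 150 introns, TGCTAAC in 18, TACTAAT in 15, TTCTAAC in 12 and TATTAAC in 9, among 42 different sequences. Of the 150, 79 ended in CTAAC, which is 52.7% (44.7 to 60.5), 31 in CTAAT, 22 in TTAAC and 2 in TTAAT. The other 16 had endings such as TACTGAC in cdc42 and alp31, TGCTTAC in intron 1 of rbx1 with 8 reads, and TACTAAA in intron 2 of SPAC11E3.10 with 13. In the 21 introns whose branch reads reached 20, these first 3 endings were found 7 times each. The base at position 2 was G in 32.7% of the class (25.7 to 40.5) and in 24.3% of the other listed introns.

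A text search gave the background for these letters. CTAAC or CTAAT was searched on the intron strand only, and an intron with both counted once. A match occurred in the last 30 nt of 76.0% of the 150 introns with branch reads and of 68.3% of the 101 without. The same letters occurred in 74.6% of the 1041 other listed introns. The class thus held the letters about as often as the other introns, and a match is not by itself a branch point.

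The branch lay close to the intron end. The distance, counted as the number of bases after the 7-nt sequence, had a median of 11 nt (quartiles 9 and 13) and was at most 20 nt in 147 of 150 introns. The median at 100 to under 150 nt was also 11 nt. Distance and intron length gave a Spearman rank correlation of -0.0349 over the 150 introns.

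**Figure D5:**
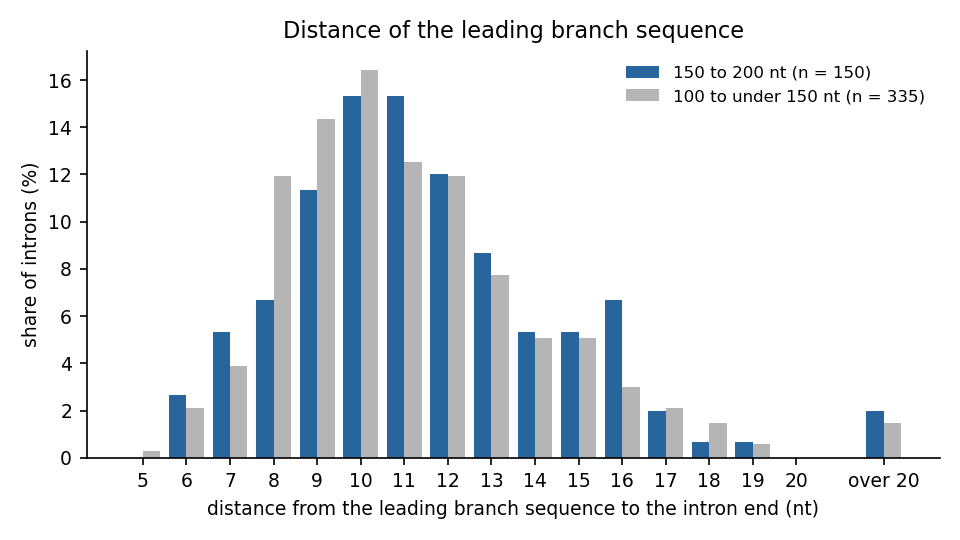
Share in % of introns by the distance in nt from the leading branch sequence to the intron end, for introns of 150 to 200 nt (blue) and 100 to under 150 nt (grey); distances over 20 nt are pooled in the last pair of bars. Both sets centre on a median of 11 nt, and 147 of the 150 blue introns lie within 20 nt.

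The shortest distance, 6 nt, was found in 4 introns, among them rmt1 with 47 branch reads, intron 1 of SPCC548.05c, a ubiquitin ligase gene, with 6, and fta3 with 4. The longest were 91 nt in intron 1 of SPAC1705.02 with 1 read, 40 nt in intron 1 of SPBC1709.16c with 2 of 3 reads, and 37 nt in intron 2 of red1, a gene of meiotic mRNA elimination, with 1 read. All 3 of these sequences belonged to the 16 with other endings. Next came intron 1 of SPBC530.06c at 19 nt and intron 1 of uch2, a ubiquitin hydrolase gene, at 18 nt, with 2 reads and 1 read. The distances beyond 20 nt therefore rest on 1 or 2 reads each. The ends of rmt1 and kes1 intron 5, with 47 and 4 branch reads, show a branch sequence near and far from the end.
rmt1 intron 3, chr1:5017253-5017282, minus strand: tgattatccgatcagtaTACTAATtttcag
kes1 intron 5, chr2:343323-343352, minus strand: tttttaTACTAACatctctgtttcttatag

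The 5′ splice sites were similar to those of the other listed introns. GTAAGT began 101 introns (40.2%) and GTATGT 57 (22.7%), against 36.7% and 24.8% of the other listed introns. The 179 introns beginning with GTNNGT had a median of 2856 reads and the other 72 had 1553, or 2227 in the 63 of these outside wtf genes. At 100 to under 150 nt the order was opposite, with 1171.5 and 1582 reads. Of the 251 introns, 6 did not begin with GTA, and these included cdc42 with GTGAGT and 75920 reads. At the 3′ end, 72.9% ended with TAG, 20.3% with CAG and 6.77% with AAG.

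Other circles of the same length were also listed. The table of added introns held 75 introns of 150 to 200 nt among its 222, with a median of 150 reads, and none overlapped an intron of the class. Its lowest value is 50 reads, and the 242 class introns with at least 50 reads had a median of 2675. Among the 75, the 52 under 180 nt had a median of 161 reads and the 23 longer ones 128. The 6 marked as snoRNA introns had 798 to 119242 reads. Of 23 circles with a skipped exon, 11 measured 150 to 200 nt and had 63 to 851 reads. These reads were counted over the short run and a long gel run together. Of the 11 circles, 9 were marked for the short run and 2 for the long run alone. Their counts therefore cannot be set beside those of the class. 1 of the 11 came from pre3, a proteasome gene whose intron 3 is in the class with 421 reads.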

How the data were processed

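The authors' tables hold, per the file headers, raw counts of peak reads per intron and, in a second table, counts of branch reads with 7-nt sequences and distances. No count was normalized, so gel recovery, intron length and library preparation all enter it. Bowtie 0.12.3 and SAMtools are named per the submitters' processing notes; the sources used here do not give read filters, the treatment of multiply matching reads or the genome build. Only the tables' names tie them to the short run. Of 254 lines of 150 to 200 nt, 3 were repeats and were dropped. Positions were compared with ASM294v3. Branch entries were joined by gene and intron number and kept where any of their sequences lay at its stated distance. In all 150 the leading sequence did, which this filter favours, so it is not a separate check. An intron whose entry did not match was counted as without branch reads. The intron number differed from the reference in 4 introns.

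Counts were described by medians and quartiles, single counts by exact Poisson and shares by Wilson 95% intervals; no test was run. The genes named were the 10 highest and 10 lowest introns, the highest and lowest per length bin, gene list and ratio of branch to peak reads, those with most branch reads, lowest leading shares and extreme distances, and genes with several introns in the class. Members, lists and this rule were chosen with earlier results of these data known. Alternatives changed the length limits, read minimums, introns per gene, scale and hosts. The interval steps were tested on simulated data. The simulated check of the placement step could not fail, so it gives no support for the placing. Python 3.11.15, numpy 2.4.6, pandas 2.3.3, scipy 1.17.1 and matplotlib 3.10.9 were used.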

Additional observations from a re-analysis of the deposited data

Results flagged for a closer look

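Intron 2 of brf1, a gene of the RNA polymerase III factor TFIIIB, measures 157 nt in the reference annotation (chromosome 2, 3058061 to 3058217, minus strand) and was absent from the table of annotated introns, while the branch table listed 34 branch reads for it. Of these, 33 supported the sequence ATCTAAC with a distance of 10 nt. It stands out because these reads could not be joined to a listed intron, so the branch results of the class leave them out. It is not the only such entry, since 760 of the 817 introns in the branch table were joined to a listed intron. In the class, 21 listed introns had at least 20 branch reads. No peak count can be given for it.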

How the results depend on the processing

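9 values were recomputed under 53 alternatives, of which 41 left them within their intervals with no change of direction. These intervals were 1799 to 3065 for the median of 2498 reads and -0.77 to -0.13 for the fall towards 200 nt. Both rest on the spread over introns of 1 library, which are not replicates, so neither is a test. None of the intervals covers variation between libraries. The median of 2498 reads was 1452 per 100 nt of intron. The share of reads in the 10 highest introns, 50.6%, was 60.9% at 160 to 190 nt, 48.9% at 140 to 210 nt, 48.6% with 1 intron per gene, 49.6% without ribosomal protein genes and 42.0% without snoRNA introns, the last added after the data were seen, as was leaving out wtf genes. The fall towards 200 nt was -0.85 on the log10 scale at 190 to 200 nt against shorter introns. The difference between first and later introns, -0.13, turned to 0.042 at 140 to 210 nt. The share of branch sequences ending in CTAAC, 52.7%, was 33.3% with at least 20 branch reads. The median of 1.09 branch reads per 1000 peak reads was 0.970 at 160 to 190 nt, 1.90 with at least 5 branch reads and 0.278 with zeros. The value per 100 nt is a change of scale. Counting zeros lowers the median ratio by construction, and a minimum of branch reads selects on its numerator. The cause of the other shifts was not tested. No paired analysis was possible because there was 1 library and no test. The branch results rest on few reads, since the median intron with branch reads had 4. The part of depth in this was not tested.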
